A study of Danio rerio with 42 samples.

Results

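The HFHC diet was compared with the ND in livers of adult zebrafish that had been exposed to 1% EtOH as embryos. The comparison used 10 of the 42 samples of the series, 5 livers on each diet, chosen by the EtOH dose, the diet and the tissue in their labels. Each library was made from 1 liver. The other samples were pooled whole larvae and 20 further livers of fish that had received 0% or 0.5% EtOH, and those livers entered only where the diet effect was set beside that of the other doses. The question was how a liver with a history of embryonic alcohol exposure (EAE) differed in its RNA after a dietary challenge in adulthood.

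All fish were of the AB strain. In the 1% EtOH groups the ethanol was in the water from 12 hpf (hours post fertilization) to 5 dpf (days post fertilization), and in the 0.5% EtOH groups over the same window at the lower dose; 0% EtOH fish received none. From 65 dpf, and for 8 weeks, ND fish got 0.013 g of dry feed per fish per day. HFHC fish got 0.063 g of the same feed per fish per day together with 0.02 g of whole egg powder per fish, so the diet groups differed in the amount of feed as well as in fat and cholesterol. According to the study's methods the cohorts were matched by family, siblings of the same clutch were compared, and several fish shared a tank. The study's discussion speaks of males, while the labels give no sex, tank, clutch or collection day for a liver. Diet and tank therefore cannot be told apart, and livers of a group may share a clutch or a tank.

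The liver burns fatty acids in mitochondria: carnitine palmitoyltransferases carry long-chain acyl groups across the mitochondrial membranes, acyl-CoA dehydrogenases and the trifunctional protein shorten them, and PPAR alpha together with CREB3L3 switches on many of these genes. When dietary cholesterol is plentiful, SREBP2 and with it the genes of cholesterol synthesis are held down. In zebrafish the exocrine pancreas lies as strands of acini along the intestine and next to the liver, so a dissected liver can carry pancreatic and intestinal tissue, and in bulk RNA fewer cells of a type and less RNA per cell cannot be told apart.

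The libraries held 9757169 to 11720953 counts in HFHC livers and 10502629 to 11574778 counts in ND livers, so depth was alike on both diets. Levels are given as CPM, which are counts scaled by library size and TMM factor, and the values of a group are always listed in the order of replicates 1 to 5. Hepatocyte markers took up 194623 to 248485 CPM in HFHC livers and 150891 to 244051 CPM in ND livers when 15 of them were summed, and none of them was at 0 in all livers of a group. The summed markers of the exocrine pancreas (18 genes, among them elastases, trypsins and carboxypeptidases) were 1250.4, 362, 1044, 335 and 1361 CPM in the HFHC livers. In the ND livers they were 29775, 11914, 9209.6, 2591 and 2912 CPM, so every ND liver lay above every HFHC liver. The summed markers of the intestinal epithelium (13 genes) were 89.3, 56.1, 69.5, 69.9 and 44.4 CPM in the HFHC livers and 55.7, 264, 4699.98, 919.6 and 4102 CPM in the ND livers. ND replicates 3 and 5 were highest, ND replicate 4 came next, and ND replicate 1 lay within the range of the HFHC livers. The islet markers were 0.758 to 6.47 CPM in HFHC livers, with insb and neurod1 at 0 in all HFHC livers. In the ND livers they were 65.5, 209, 11.6, 1.23 and 98.2 CPM. Their order over the ND livers was not that of the exocrine markers, and ND replicate 4 lay within the range of the HFHC livers. Biliary epithelium markers, which include keratins that other epithelia share, were 1109 to 1507 CPM in HFHC livers and 1608 to 2897 CPM in ND livers. Adipocyte markers (8 genes, among them cebpa, which hepatocytes also express) were 38.3 to 49 CPM in HFHC livers and 58.5 to 79.9 CPM in ND livers, without overlap, with the defining markers plin1, adipoqb and lepb at 0 in all HFHC livers and 3 of the 8 genes at 0 in all ND livers. Summed leukocyte markers overlapped between the diets, at 99.96 to 149 CPM in HFHC livers and 83.8 to 168 CPM in ND livers. Of the 23 leukocyte genes, cd79a, cd79b and pax5 were at 0 in all HFHC livers, and 0 genes were at 0 in all ND livers. The transcripts of yolk and egg proteins also overlapped, at 117 to 296 CPM and 105 to 244 CPM.

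**Figure D1:**
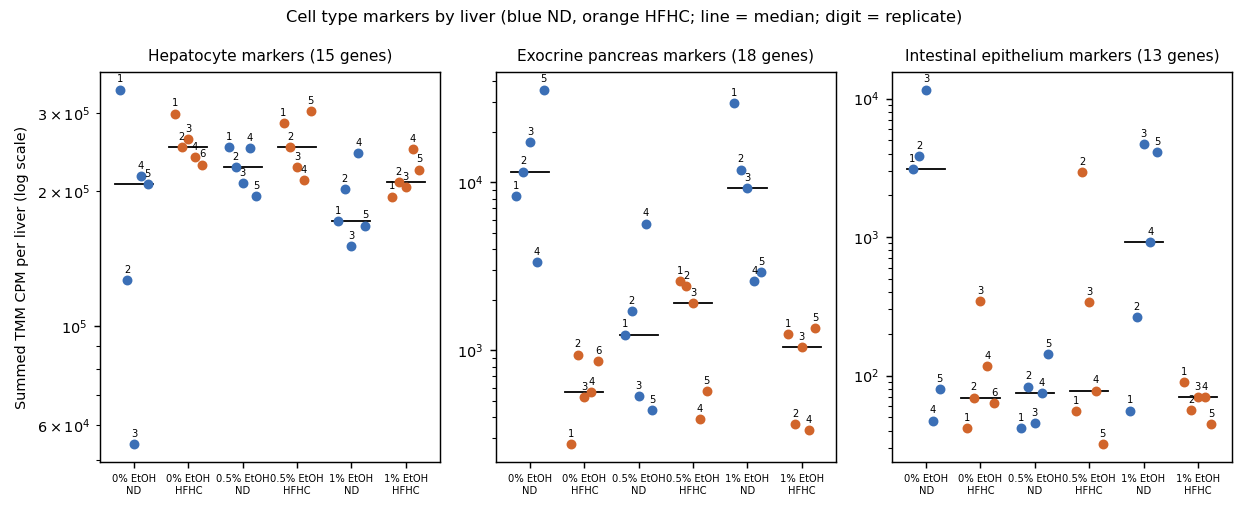
Summed CPM of hepatocyte, exocrine pancreas and intestinal epithelium markers (y axis, log scale) in each of the 30 livers, by EtOH dose and diet (x axis); each point is 1 liver with its replicate number, and the line is the group median. In the 1% EtOH livers the pancreatic sum is at least 2591 CPM in every ND liver and at most 1361 CPM in every HFHC liver, while the intestinal sum is highest in ND replicates 3, 5 and 4 and overlaps with the HFHC livers in ND replicate 1.

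With these marker differences in view, 136 of 12622 genes tested passed an adjusted p of 0.05 (1.08% of all genes), by the quasi-likelihood test of edgeR, adjusted over all genes by the Benjamini-Hochberg method. Of these, 25 were higher on the HFHC diet (0.198%) and 111 were lower (0.879%). The higher genes changed by 0.57 to 2.02 on the log2 scale, with genes of fatty acid oxidation, pyruvate import and thyroid hormone activation among them, and in all 25 the livers of the 2 diets did not overlap, where 3.43% of all genes had diets without overlap and 1.47% were higher in that way. The lower genes had log2 fold changes of -8.66 to -0.59, with digestive enzymes, brush border genes and interferon-response genes among them, and 88 of them were without overlap (1.96% of all genes were lower in that way). In 27 of the 111 lower genes the highest ND liver was replicate 1, in 33 it was replicate 3 and in 46 it was replicate 5, which are the livers with the most pancreatic and the most intestinal marker RNA; replicates 2 and 4 were highest in 3 and 2 genes. The median over all genes tested was -0.01.

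The number of calls depended strongly on single livers. It was 3, 2, 1, 1 and 1 without HFHC replicate 1, 2, 3, 4 and 5, and 343, 302, 9, 88 and 23 without ND replicate 1, 2, 3, 4 and 5. Many calls shared 1 adjusted p just inside the threshold, since 20 of the 25 higher and 83 of the 111 lower genes had adjusted p = 0.0464. The Benjamini-Hochberg method gave this tied value to genes with different unadjusted p in edgeR's test, such as 7.8e-05 for acsl5 and 3.6e-04 for acadl. With the summed pancreatic and intestinal markers as covariates no gene passed in edgeR, although 493 genes had an unadjusted p under 0.05. That fit leaves few degrees of freedom, and the pancreatic sum was higher in every ND liver than in every HFHC liver. The covariate fit can therefore hardly tell diet from marker level, whether the sign of a gene stays or turns. In the fit of all doses, such covariates also took the diet count at 0% EtOH from 1580 to 0. All 25 higher genes stayed positive with the marker covariates (median 0.97, against 1.01 without them). Without ND replicates 3, 4 and 5 the median of these 25 genes was 1.12. Their sign could hardly turn in that fit, since the diets did not overlap in any of the 25. Of the 111 lower genes, 87 stayed negative with the covariates, and their median went from -3.72 to -0.83. These fits, which drop livers or add markers, were chosen after the data had been seen.

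In the 1% EtOH livers, 4 genes of mitochondrial fatty acid oxidation rose on the HFHC diet. Among the 35 tested genes of fatty acid oxidation and PPAR targets, 4 were higher and none was lower (the background for higher genes is 0.198%), 8 were higher in all HFHC livers than in any ND liver (1.47% of all genes), and 13 were higher and 1 was lower at an unadjusted p under 0.05, as were 5.41% and 8.92% of all genes. Their median log2 fold change was 0.28 (range over the left-out livers 0.21 to 0.36), against -0.01 over all genes. It was 0.47 without ND replicates 3, 4 and 5 and 0.30 with the marker covariates.

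The gene cpt2 (chromosome 8, bases 21105361 to 21110517, GRCz10) encodes the carnitine palmitoyltransferase of the inner mitochondrial membrane, which hands long-chain acyl groups back to CoA. It was at 69.2, 75.5, 89, 79.8 and 92.7 CPM in the HFHC livers and 51.3, 34, 52.6, 36.1 and 47.1 CPM in the ND livers. The groups did not overlap, and cpt2 rose by 0.88 ± 0.159 (SE, adjusted p = 0.0464) on the log2 scale. The alpha subunit of the mitochondrial trifunctional protein, hadhaa (chromosome 20, bases 48484539 to 48555271, GRCz10), was at 307, 274, 236, 275 and 292 CPM in the HFHC livers and 168, 186, 184, 176 and 148 CPM in the ND livers. Its groups did not overlap either, and the change was 0.68 ± 0.123 (SE, adjusted p = 0.0464). The long-chain acyl-CoA dehydrogenase gene acadl, which acts in the first step of each round of oxidation, was at 253, 245, 273, 303 and 288 CPM in the HFHC livers and 193, 169.9, 185, 190.1 and 179 CPM in the ND livers. The ND livers lay close together, the lowest HFHC liver stood above all of them, and acadl rose by 0.57 ± 0.113 (SE, adjusted p = 0.0464). The remaining called gene of the list was decr1, named here because it completes the count of 4; it encodes the 2,4-dienoyl-CoA reductase that prepares unsaturated fatty acids for oxidation. Its levels were 139.97, 215, 159.6, 173 and 244 CPM in the HFHC livers and 81.9, 27.9, 54.5, 66.4 and 100.1 CPM in the ND livers, without overlap, with a change of 1.49 ± 0.302 (SE, adjusted p = 0.0475). The 4 genes kept their direction with the marker covariates, at 1.47 for cpt2, 0.81 for hadhaa, 0.51 for acadl and 1.08 for decr1. The gene cpt1ab encodes a carnitine palmitoyltransferase of the outer membrane, the step that is rate limiting for entry. It overlapped between the diets, at 211, 163, 146, 144 and 121 CPM in the HFHC livers and 91.7, 227, 122, 127 and 79.3 CPM in the ND livers (log2 fold change 0.28 ± 0.272 SE, adjusted p = 0.723). Its paralogs cpt1aa and cpt1b, named here to complete the step, had 0.41 ± 0.187 (SE, adjusted p = 0.349) and 0.16 ± 0.208 (SE, adjusted p = 0.80). The receptor gene pparaa was at 16.8, 23, 20.9, 22.4 and 16.6 CPM in the HFHC livers and 18.9, 19.1, 24.4, 24.7 and 17.5 CPM in the ND livers, and these values did not separate the diets (log2 fold change -0.068 ± 0.155 SE, adjusted p = 0.902).

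The gene with the smallest p was guca1g (chromosome 25, bases 13996471 to 13999911, GRCz10), which encodes a guanylate cyclase activator known from photoreceptors. Its levels were 20.4, 24.4, 31.2, 31.9 and 35.4 CPM in the HFHC livers and 8.63, 7.86, 6.6, 6.41 and 5.86 CPM in the ND livers. Every HFHC liver was above every ND liver, and guca1g rose by 2.02 ± 0.185 (SE, adjusted p = 0.00322). It was the only gene of the 136 that passed with each of the 10 livers left out in turn, with adjusted p of at most 0.0264. The liver transcription factor gene creb3l3a, whose mammalian counterpart CREB3L3 acts with PPAR alpha in fasting and lipid metabolism, was at 215, 167, 248, 228 and 308 CPM in the HFHC livers and 135, 84.6, 95.1, 102 and 110.3 CPM in the ND livers. The groups stayed apart, with a change of 1.15 ± 0.185 (SE, adjusted p = 0.0464). The pyruvate carrier subunit gene mpc2, which lets pyruvate into mitochondria, was at 602, 609, 629, 499 and 484 CPM in the HFHC livers and 276, 366, 303, 315 and 221 CPM in the ND livers, also without overlap (log2 fold change 0.93 ± 0.157 SE, adjusted p = 0.0464). The gene dio2 (chromosome 17, bases 16865484 to 16868819, GRCz10), whose deiodinase makes active thyroid hormone T3 from T4, was at 1044, 1137, 1468, 1153 and 1683 CPM in the HFHC livers and 388, 746, 344, 287 and 566 CPM in the ND livers. HFHC replicates 3 and 5 were highest, no ND liver reached the lowest HFHC liver, and dio2 rose by 1.48 ± 0.266 (SE, adjusted p = 0.0464). The methionine synthase gene mtr, which returns homocysteine to methionine, was at 49.7, 28.3, 45.1, 64.3 and 52.4 CPM in the HFHC livers and 17.6, 22.8, 20.3, 18.2 and 19.9 CPM in the ND livers. Its ND values spanned a narrow band below all HFHC values, and the change was 1.28 ± 0.197 (SE, adjusted p = 0.0464).

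**Figure D2:**
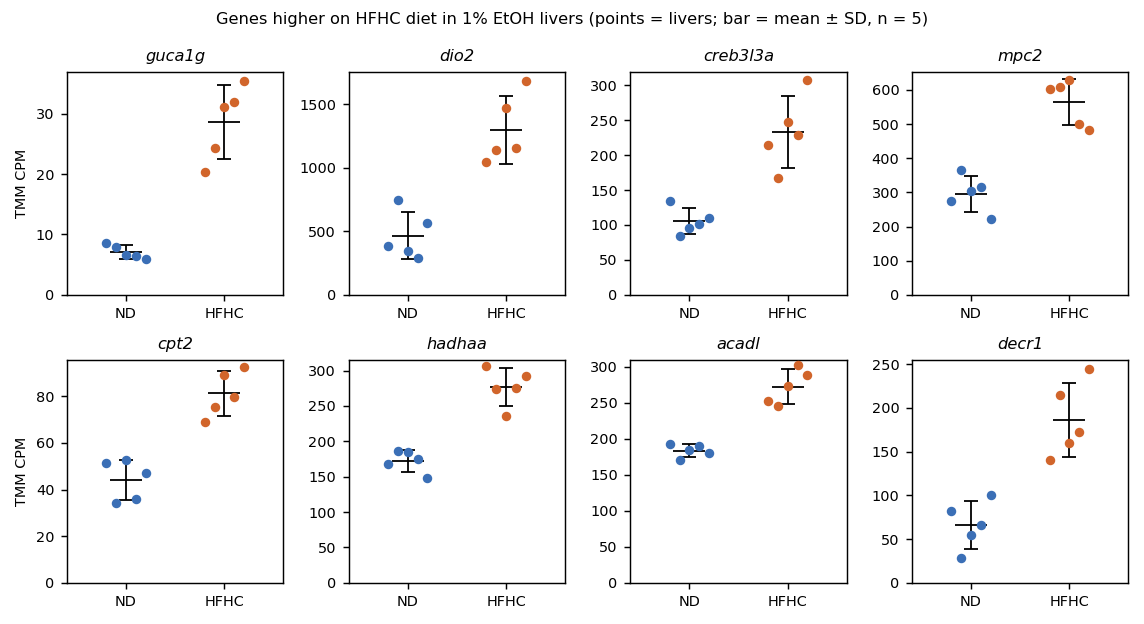
CPM (y axis, linear from 0) of 8 genes higher on the HFHC diet in 1% EtOH livers; points are the 5 livers of each diet in replicate order and the bar is the mean ± SD. In all 8 genes the lowest HFHC liver lies above the highest ND liver of the same gene.

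Other genes among the 12 higher ones with the smallest p were spread over different functions. The serine protease family gene prss35 rose by 1.75 ± 0.293 SE, taf6, a subunit gene of the general transcription factor TFIID, by 1.58 ± 0.279 SE, and HACD1, which belongs to the enzymes that elongate very long-chain fatty acids, by 1.55 ± 0.254 SE. The increases of otog, rltpr and cdk4 were 1.08 ± 0.192, 0.81 ± 0.139 and 0.67 ± 0.116 SE, where cdk4 encodes a cyclin-dependent kinase of the G1 phase. All these genes had adjusted p = 0.0464 and no overlap between the diets. In cdk4, for instance, HFHC livers were at 19.7, 17.6, 21.2, 20.5 and 20.7 CPM and ND livers at 13.9, 13.5, 12.4, 11.9 and 11.1 CPM, a small and even difference. In taf6, HFHC replicate 1 (13 CPM) was close to the highest ND liver (11.6 CPM), and the other HFHC livers were 27.3 to 48.1 CPM. With marker covariates taf6 was at 0.31, down from 1.58, and HACD1 at 0.60, down from 1.55.

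Retinoid and triglyceride genes gave 1 further increase each. Among 29 genes of retinoid, alcohol and xenobiotic metabolism, 1 was higher and 1 lower (0.198% and 0.879% of all genes), with a median of -0.023. The higher one, rbp5, encodes a cellular retinol-binding protein and was at 99.6, 74.2, 62.4, 80.7 and 72.6 CPM in the HFHC livers and 32.7, 12.3, 22.9, 24.2 and 45.3 CPM in the ND livers. No ND liver reached the lowest HFHC liver, and rbp5 rose by 1.5 ± 0.292 (SE, adjusted p = 0.0464). The lower one, aldh1a2, makes retinoic acid from retinaldehyde and was at 2.24, 2.38, 1.24, 0.768 and 2.01 CPM in the HFHC livers and 14.1, 6.56, 17.6, 5.45 and 21.3 CPM in the ND livers. Its ND values were highest in replicates 1, 3 and 5, the groups did not overlap, and aldh1a2 fell by 2.89 ± 0.439 (SE, adjusted p = 0.0464). Those are the livers with the most pancreatic or intestinal marker RNA, and with marker covariates the value was -1.0. Among 20 genes of triglyceride synthesis and lipid droplets, with a median of 0.17, 1 was higher (0.198% of all genes). This was agpat3, an acyltransferase of phospholipid and triglyceride synthesis, at 651, 531, 628, 777 and 643 CPM in the HFHC livers and 318, 496, 360.1, 312 and 256 CPM in the ND livers, which rose by 0.89 ± 0.185 (SE, adjusted p = 0.0493) without overlap. The lipid droplet coat gene plin2 was at 80.9, 56.4, 76.4, 76.6 and 41.9 CPM in the HFHC livers and 16, 153, 43.7, 26.6 and 15.6 CPM in the ND livers; ND replicate 2 stood far above the other ND livers and above all HFHC livers, and plin2 had a log2 fold change of 0.38 ± 0.579 (SE, adjusted p = 0.837).

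Cholesterol synthesis genes are known to be repressed by an excess of dietary cholesterol. None of the 23 tested passed in either direction by edgeR's test, 5 were higher and none lower at an unadjusted p under 0.05 (5.41% and 8.92% of all genes), and the median of the 23 was 0.41. The range over left-out livers was 0.22 to 0.59, and with marker covariates the median was -0.61. HFHC replicate 4 was highest for the squalene epoxidase gene sqlea, at 4.66, 2.56, 3.83, 23.3 and 7.71 CPM in the HFHC livers and 0.534, 5.61, 0.33, 0.427 and 2.38 CPM in the ND livers (log2 fold change 2.16 ± 0.828 SE, adjusted p = 0.252). For the HMG-CoA reductase gene hmgcra, the rate-limiting step, the values were 18, 12.5, 15.9, 42.6 and 12.7 CPM in the HFHC livers and 3.74, 42.2, 6.6, 13.9 and 16 CPM in the ND livers, and here ND replicate 2 was as high as HFHC replicate 4 (log2 fold change 0.30 ± 0.582 SE, adjusted p = 0.878). The same pair of livers stood out for hmgcs1 and lss, named after their values were seen, which encode HMG-CoA synthase and lanosterol synthase; HFHC replicate 4 had 73.9 and 26.3 CPM and ND replicate 2 had 30.4 and 8.81 CPM. The member with the smallest p was nsdhl, a sterol dehydrogenase gene (log2 fold change 0.53 ± 0.17 SE, adjusted p = 0.168). The regulator gene srebf2 was at 34, 32.8, 43.3, 61 and 43 CPM in the HFHC livers and 20.2, 76.9, 18.9, 24.4 and 24.2 CPM in the ND livers, again with ND replicate 2 highest (log2 fold change 0.38 ± 0.384 SE, adjusted p = 0.729). Of the 19 genes of sterol regulation and uptake none passed by edgeR's test, 3 were lower at an unadjusted p under 0.05 (8.92% of all genes) and the median was 0.086. The LDL receptor gene ldlra had a log2 fold change of 0.054 ± 0.312 (SE, adjusted p = 0.968). Its paralog ldlrb, named here beside it, had -1.59 ± 0.546 (SE, adjusted p = 0.203). The smallest p in this list was that of the HDL receptor gene scarb1, at 6.21, 4.5, 4.24, 3.27 and 5.7 CPM in the HFHC livers and 5.34, 6.48, 70.9, 23.4 and 87.5 CPM in the ND livers (log2 fold change -3.01 ± 0.731 SE, adjusted p = 0.0814), high in the ND livers with the most intestinal marker RNA and at -0.28 without ND replicates 3, 4 and 5.

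Of 16 genes of fatty acid synthesis and desaturation, 2 were lower (0.879% of all genes) and none higher, with a median of -0.10. At an unadjusted p under 0.05, 2 were higher and 5 were lower (5.41% and 8.92% of all genes), and 8 of the 16 had a positive value. Without ND replicates 3, 4 and 5 the median was 0.19, and with marker covariates it was -0.028. Both genes that passed encode long-chain acyl-CoA synthetases. The gene acsl5 had 7 counts in all 5 HFHC livers together and 3139 in the ND livers, a ratio of ND to HFHC of 439 (exact 95% interval 213 to 1094, covering counting error only), and its ND values of 2.49, 3.2, 114, 28.4 and 121 CPM followed the intestinal sum. For acsl1b the values were 2.16, 1.15, 2.07, 0.768 and 1.68 CPM in the HFHC livers and 7.3, 4.32, 42.6, 6.62 and 34.3 CPM in the ND livers, without overlap (log2 fold change -3.60 ± 0.689 SE, adjusted p = 0.0464), and with marker covariates the sign turned, to 1.01. The fatty acid synthase gene fasn was at 37.9, 65.6, 53.5, 29.1 and 41.2 CPM in the HFHC livers and 48.4, 5.79, 21.5, 28.2 and 34.2 CPM in the ND livers and its regulator srebf1 at 8.8, 12.1, 11, 7.2 and 7.12 CPM in the HFHC livers and 4.8, 6.13, 10.8, 8.33 and 9.0 CPM in the ND livers. Both overlapped between the diets, with 0.72 ± 0.433 (SE, adjusted p = 0.504) for fasn and 0.24 ± 0.243 (SE, adjusted p = 0.729) for srebf1. The desaturase gene scd had too few counts to be tested, as had cyp7a1, gck, fgf21 and saa.

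Among 22 apolipoprotein and lipoprotein assembly genes 1 was lower (0.879% of all genes) and none higher, 6 were higher at an unadjusted p under 0.05 (5.41% of all genes), and the median was 0.26 (0.40 without ND replicates 3, 4 and 5, -0.45 with marker covariates). The lower gene was apoea, an apolipoprotein E gene, at 4.05, 1.06, 9.83, 0.961 and 5.53 CPM in the HFHC livers and 1.69, 95.7, 1748, 642 and 3049 CPM in the ND livers. Its ND values rose with the intestinal sum, ND replicate 1 lay inside the HFHC range, and the change was -8.01 ± 1.62 (SE, adjusted p = 0.0475). The paralog apoeb was at 1933, 2082, 1129.5, 3735 and 1457 CPM in the HFHC livers and 2525, 1589.8, 1192, 1643 and 986 CPM in the ND livers (log2 fold change 0.38 ± 0.335 SE, adjusted p = 0.682), and apoa4b.1, which encodes apolipoprotein A-IV, had a log2 fold change of 0.0079 ± 0.172 (SE, adjusted p = 0.99). Bile acid genes (17 tested) had none past the threshold by edgeR's test, 5 higher and 2 lower at an unadjusted p under 0.05 (5.41% and 8.92% of all genes), and a median of 0.15. The smallest p was that of nr0b2a, the SHP repressor gene of bile acid synthesis, at 4.05, 1.41, 2.59, 3.55 and 7.37 CPM in the HFHC livers and 4.72, 12.5, 185, 33.1 and 102 CPM in the ND livers. ND replicates 3, 4 and 5 were highest (log2 fold change -4.14 ± 0.917 SE, adjusted p = 0.0615), and without them the value was -1.16.

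Genes of the interferon response were among those that fell on the HFHC diet. Of 33 tested genes of antigen processing and interferon response, 2 were lower and none higher, where the background for lower genes is 0.879%. At an unadjusted p under 0.05, 12 were lower and none higher (8.92% and 5.41% of all genes), and 7 of the 33 had a positive value. The median was -0.48 (range over the left-out livers -0.59 to -0.29). Without ND replicates 3, 4 and 5 it was -0.0024 and with marker covariates 0.49.

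The transcription factor gene irf7 (chromosome 25, bases 25451711 to 25455877, GRCz10), a called member of the list that switches on interferon genes, was at 7.07, 6.09, 6.42, 5.19 and 4.94 CPM in the HFHC livers and 10.9, 17, 12.6, 15 and 14 CPM in the ND livers. The highest HFHC liver stayed under the lowest ND liver, and irf7 fell by 1.22 ± 0.164 on the log2 scale (SE, adjusted p = 0.0363). Its highest ND liver was replicate 2, with 264 CPM of intestinal and 11914 CPM of exocrine pancreas markers. That liver also had the highest islet and biliary sums of the ND livers, at 209 and 2897 CPM. The log2 fold change of irf7 was -1.21 without ND replicates 3, 4 and 5 and -1.25 with marker covariates. Whether attached tissue contributed to the decrease of irf7 was not tested.

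Several genes of the same pathway outside that list also fell, and apart from pkz they were picked after their values were seen. The gene pkz, which encodes a Z-DNA-binding antiviral kinase of fish, was at 2.93, 1.59, 3.62, 2.11 and 2.76 CPM in the HFHC livers and 6.49, 6.74, 9.16, 5.23 and 7.14 CPM in the ND livers, without overlap (log2 fold change -1.42 ± 0.24 SE, adjusted p = 0.0464). The signal transducer gene stat2, which acts downstream of type I interferon receptors, was at 92, 74.7, 95.2, 65.3 and 96.2 CPM in the HFHC livers and 152, 192, 217, 147 and 122 CPM in the ND livers, without overlap (log2 fold change -0.97 ± 0.184 SE, adjusted p = 0.0464). The ubiquitin ligase gene trim25, which acts in RIG-I signalling, was at 44.9, 41.5, 38, 35.1 and 41.1 CPM in the HFHC livers and 62.3, 57.5, 68, 57.4 and 56.8 CPM in the ND livers, a small difference with tight groups (log2 fold change -0.59 ± 0.116 SE, adjusted p = 0.0464). Other interferon-induced genes had log2 fold changes of -1.44 ± 0.272 SE for xaf1, -2.21 ± 0.379 SE for ifit8, -2.23 ± 0.406 SE for uba7, the activating enzyme gene for ISG15, -1.40 ± 0.284 SE for rnf213b and -2.88 ± 0.559 SE for helz2, all with adjusted p of at most 0.0476. In helz2 the highest liver was ND replicate 3, at 83.4 CPM against 10.4 to 28.9 CPM in the other ND livers and at most 5.78 CPM in HFHC livers. The changes of ifit14 and gig2e were -4.90 ± 0.878 and -3.91 ± 0.743 SE and their ND values were highest in replicates 3 and 5. The ubiquitin-like modifier gene isg15 (log2 fold change -1.26 ± 0.335 SE, adjusted p = 0.102) and the RIG-I family gene dhx58 (log2 fold change -2.02 ± 0.458 SE, adjusted p = 0.0676) overlapped between the diets and did not pass. Unlike the genes before them, isg15 and dhx58 are members of the list and are already in its counts. They too were picked after their values were seen. Without ND replicates 3, 4 and 5 the values of stat2, trim25 and pkz were -1.0, -0.55 and -1.32, close to those with all livers. In the same fit helz2 and gig2e went to -1.59 and -1.67. The diets did not overlap in stat2, trim25 and pkz, so their sign could hardly turn there. The ND livers kept, replicates 1 and 2, had the highest exocrine pancreas sums, at 29775 and 11914 CPM. How far attached pancreas contributed was not tested. With the marker covariates stat2, pkz, rnf213b and helz2 turned positive, at 0.071, 0.22, 0.34 and 1.13. Leukocyte marker sums overlapped between the diets, but 3 leukocyte markers were at 0 in all HFHC livers, as given above. Of 13 leukocyte markers tested by edgeR, 2 were lower and 0 higher at an unadjusted p under 0.05 (8.92% and 5.41% of all genes). Positive values were found in 5 of the 13. Whether leukocytes contributed to the decreases was not tested.

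**Figure D3:**
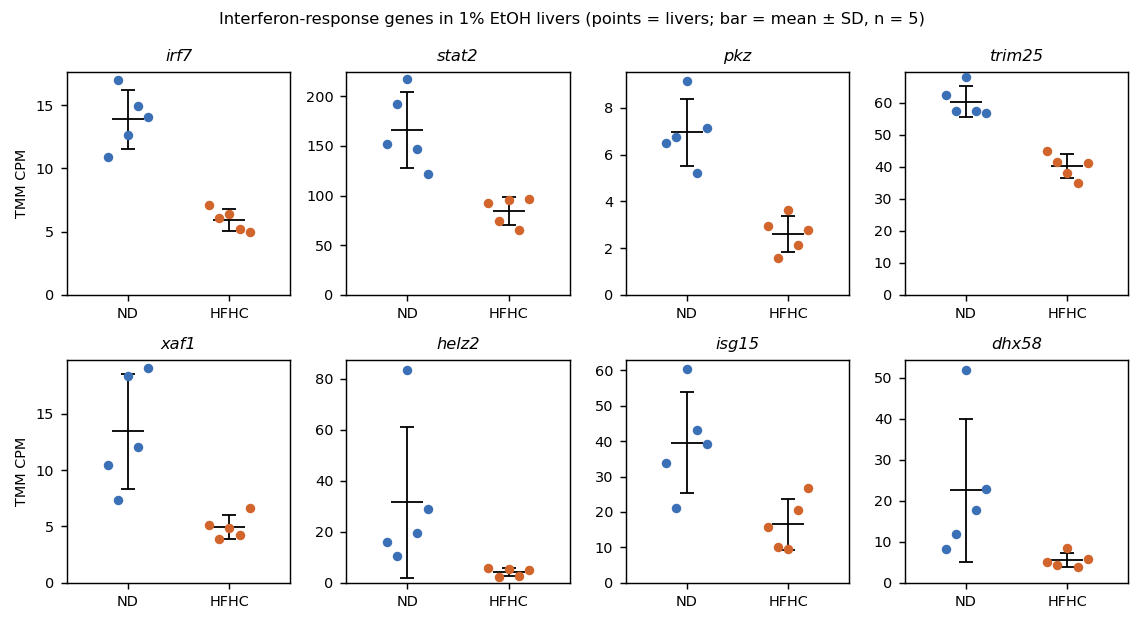
CPM (y axis, linear from 0) of 8 interferon-response genes in 1% EtOH livers by diet; points are the 5 livers of each diet in replicate order and the bar is the mean ± SD. The diets do not overlap in irf7, stat2, pkz, trim25, xaf1 and helz2, and they overlap in isg15 and dhx58, where ND replicate 3 is highest.

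The MHC class I gene mhc1uba did not pass, at 48.3, 37.7, 32, 32.6 and 37.2 CPM in the HFHC livers and 31.5, 165, 55.8, 77 and 621 CPM in the ND livers. ND replicate 5 stood far above the other livers and ND replicate 1 was under the lowest HFHC liver (log2 fold change -2.34 ± 0.702 SE, adjusted p = 0.139).

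Many marker genes of the exocrine pancreas and the intestine fell on the HFHC diet. All 17 tested exocrine pancreas markers were lower at an unadjusted p under 0.05 (8.92% of all genes), 10 of them passed as lower (0.879% of all genes), 15 did not overlap between the diets (1.96% of all genes were lower without overlap), and their median was -3.77. With the marker covariates, which include these same genes, the median was 0.05. The elastase gene ela2l was at 93.9, 33.5, 66, 23.2 and 86 CPM in the HFHC livers and 2168, 991, 719, 217 and 233 CPM in the ND livers (log2 fold change -3.84 ± 0.691 SE, adjusted p = 0.0464), the trypsin gene prss59.1 at 174, 58.7, 166, 41.2 and 223 CPM in the HFHC livers and 4816, 1648, 1586, 435 and 599 CPM in the ND livers (log2 fold change -3.77 ± 0.724 SE, adjusted p = 0.0464). ND replicate 1 was highest in both. The carboxypeptidase gene cpa4 and the syncollin gene sycn.1, a zymogen granule component, had changes of -4.05 ± 0.768 and -3.55 ± 0.654 SE, and spink4, a Kazal-type protease inhibitor gene, was at 5.78, 2.03, 2.59, 2.31 and 4.94 CPM in the HFHC livers and 84.4, 34.1, 35.9, 14.6 and 23 CPM in the ND livers (log2 fold change -3.43 ± 0.497 SE, adjusted p = 0.0464).

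Of the 13 intestinal markers, 7 had enough counts to be tested. Of these 7, 4 passed as lower (0.879% of all genes), all 7 were lower at an unadjusted p under 0.05 (8.92% of all genes) and the median was -5.58, or -2.78 without ND replicates 3, 4 and 5. A gene near 0 in the HFHC livers passes the filter mainly through its ND counts and can then hardly come out higher. The counts of lower markers therefore add no support of their own to the marker sums. The peptide transporter gene slc15a1b had 17 counts in the HFHC livers and 5805 in the ND livers, and its ND values were 0.267, 7.69, 159, 43.9 and 286 CPM. The chitinase gene chia.2 was at 0.801, 47.9, 995, 269.99 and 1117 CPM in ND livers and the villin gene vil1, a brush border component, at 0, 10.2, 347, 104 and 430.3 CPM, where ND replicate 1 was as low as the HFHC livers. The secretory cell gene agr2 had a change of -3.66 ± 0.728 SE, and the keratin gene krt4 of the biliary list one of -4.65 ± 0.81 SE.

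Other genes lower by the smallest p followed the same livers. The brush border maltase-glucoamylase gene MGAM was at 1.03, 0.529, 0.932, 0 and 0.754 CPM in the HFHC livers and 7.3, 21.1, 397, 106 and 550.3 CPM in the ND livers (log2 fold change -8.35 ± 1.32 SE, adjusted p = 0.0464), and the intestinal claudin gene cldn15a had 6 counts in HFHC and 867 in ND livers, a ratio of 142 (64.8 to 387). For mfi2, which encodes the iron-binding melanotransferrin, the counts were 16 and 1864 (ratio 114, 70.09 to 200.1), and for tex9, a gene named for expression in testis, 2 and 233 (ratio 114, 31.2 to 948). The cyclic GMP phosphodiesterase gene pde9a had 14 and 149 counts (ratio 10.4, 6.02 to 19.5), and the DNA repair gene tdp2a was at 0.431, 0.441, 0.725, 0.48 and 0.419 CPM in the HFHC livers and 1.87, 1.64, 5.69, 2.35 and 6.71 CPM in the ND livers (log2 fold change -2.86 ± 0.472 SE, adjusted p = 0.0464). In MGAM, mfi2, tex9, pde9a and tdp2a the highest ND liver was replicate 5, and in cldn15a it was replicate 3. How much of any decrease came from attached tissue was not tested apart from the covariates and left-out livers above. The covariate fit can hardly tell diet from marker level, as given above.

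Of 26 collagen and stellate cell genes 1 was lower (0.879% of all genes), and 8 were lower and none higher at an unadjusted p under 0.05 (8.92% and 5.41% of all genes). Their median was -0.35 (-0.68 without ND replicates 3, 4 and 5, -0.082 with marker covariates). The lower gene was tagln, a smooth muscle and myofibroblast actin-binding protein gene, at 3.28, 3.18, 2.8, 2.69 and 2.09 CPM in the HFHC livers and 5.96, 8.98, 19.4, 4.81 and 13.9 CPM in the ND livers (log2 fold change -1.92 ± 0.366 SE, adjusted p = 0.0464), which turned to 0.096 with marker covariates. The collagen gene col1a1a was at 3.45, 1.85, 4.04, 2.21 and 3.35 CPM in the HFHC livers and 7.65, 10.9, 4.62, 3.95 and 3.23 CPM in the ND livers, highest in ND replicates 1 and 2 (log2 fold change -1.03 ± 0.357 SE, adjusted p = 0.209). Among 37 clock genes 1 was lower (0.879% of all genes), with a median of -0.20. This was roraa, a nuclear receptor of the clock, at under 1 CPM in HFHC livers and 1.25, 2.07, 3.22, 1.39 and 1.87 CPM in ND livers (log2 fold change -2.13 ± 0.437 SE, adjusted p = 0.0476), and it went to 0.033 with marker covariates. The core clock genes arntl1a (0.16 ± 0.143 SE), per1a (-0.27 ± 0.425 SE), per2 (0.037 ± 0.147 SE) and nr1d1 (-0.55 ± 0.346 SE) all overlapped between the diets.

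A further list held 17 liver genes, most of them named in the study's text, and none passed in this comparison by edgeR's test. The study named its genes for a different contrast, EtOH-exposed against 0% EtOH livers on the HFHC diet. It used DESeq2 and, for most of them, an unadjusted P under 0.05. The values here therefore do not test the study's result. The ER chaperone gene hspa5 was at 121, 58.1, 90.8, 187 and 65.2 CPM in the HFHC livers and 104, 175, 41.5, 26.6 and 82.6 CPM in the ND livers, with HFHC replicate 4 and ND replicate 2 highest (log2 fold change 0.28 ± 0.482 SE, adjusted p = 0.862). The other ER and stress genes were 0.12 ± 0.432 SE for the co-chaperone gene dnajb11, 0.18 ± 0.17 SE for the extraction ATPase gene vcp, 0.22 ± 0.118 SE for nfe2l1b, and -0.036 ± 0.179 and 0.21 ± 0.146 SE for the stress transcription factor genes atf4a and atf4b. Iron genes varied by single livers. The iron exporter gene slc40a1 was at 36.8, 31.3, 50.6, 29.8 and 236 CPM in the HFHC livers and 39.9, 49.1, 44.1, 35.5 and 37.5 CPM in the ND livers, with HFHC replicate 5 alone high (log2 fold change 0.90 ± 0.546 SE, adjusted p = 0.509), and the same liver had the lowest level of the hepcidin gene hamp, at 169, 341, 61.5, 313 and 3.1 CPM in the HFHC livers and 101, 430.3, 297, 241 and 170.1 CPM in the ND livers (log2 fold change -0.48 ± 0.818 SE, adjusted p = 0.859), and the highest of the transferrin gene tfa (log2 fold change 0.38 ± 0.228 SE, adjusted p = 0.506). The ferritin gene fth1a had a log2 fold change of -0.58 ± 0.434 (SE, adjusted p = 0.613). The retinol carrier gene rbp4 had a log2 fold change of -0.12 ± 0.26 (SE, adjusted p = 0.90), the glycogenin gene gyg1a -0.086 ± 0.158 (SE, adjusted p = 0.874), scp2a, which encodes a peroxisomal sterol carrier protein, 0.037 ± 0.222 (SE, adjusted p = 0.97), and the alcohol dehydrogenase gene adh8a -0.51 ± 0.301 (SE, adjusted p = 0.498). The kinase gene sgk1, a glucocorticoid target, was at 70.11, 173, 39.6, 30.5 and 15.9 CPM in the HFHC livers and 55.2, 377, 113, 77.5 and 77.2 CPM in the ND livers, highest in ND replicate 2 (log2 fold change -1.09 ± 0.682 SE, adjusted p = 0.523). The fatty acid-binding protein gene fabp1b.1 was at 102, 52.8, 28.2, 52.1 and 25.9 CPM in the HFHC livers and 36.9, 28.1, 443, 196 and 845 CPM in the ND livers; its highest ND livers were replicates 3, 4 and 5 (log2 fold change -2.57 ± 0.849 SE, adjusted p = 0.181), and without them its value was 0.71.

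In the further lists no gene passed by edgeR's test, and they are given by their median and their member with the smallest p. The result depended on the method. Of all 76 named genes that did not pass by edgeR, 19 had a stronger result with DESeq2. Of 30 genes of gluconeogenesis and glycolysis, 8 were lower and 1 higher at an unadjusted p under 0.05 (8.92% and 5.41% of all genes), with a median of -0.14 and ldha, the lactate dehydrogenase gene, at the smallest p (log2 fold change -3.47 ± 0.824 SE, adjusted p = 0.0768, or -0.64 without ND replicates 3, 4 and 5). The PEPCK gene pck1 ranged widely, at 259.6, 741, 502, 77.2 and 22.2 CPM in the HFHC livers and 134, 1923, 430.5, 757 and 370.4 CPM in the ND livers (log2 fold change -1.17 ± 0.866 SE, adjusted p = 0.606), and the glucose-6-phosphatase gene g6pca.1 had a log2 fold change of 0.046 ± 0.373 (SE, adjusted p = 0.977). For 16 glycogen genes the median was -0.13, with ugp2b at the smallest p (-0.94 ± 0.305 SE) and the glycogen synthase gene gys2 at -0.031 ± 0.166 SE. For 36 genes of amino acid catabolism it was -0.068, with sdsl (-3.00 ± 0.838 SE) first and the tyrosine aminotransferase gene tat at -0.65 ± 0.236 SE.

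For 24 genes of insulin, the IGF axis and growth the median was 0.11. The growth factor gene igf1 was at 70.6, 85.4, 80.8, 62 and 59.23 CPM in the HFHC livers and 28.2, 51, 48.6, 50.1 and 44.1 CPM in the ND livers, without overlap but short of the threshold (log2 fold change 0.69 ± 0.182 SE, adjusted p = 0.0999), and the binding protein gene igfbp1a was at 210.1, 141, 321, 131 and 47.4 CPM in the HFHC livers and 160.2, 1559, 847, 365 and 160.3 CPM in the ND livers (log2 fold change -1.86 ± 0.681 SE, adjusted p = 0.229). For 18 glucocorticoid-responsive genes the median was -0.37, with 2 lower and none higher at an unadjusted p under 0.05 (8.92% and 5.41% of all genes), zbtb16a first (-1.26 ± 0.521 SE) and fkbp5 at -0.28 ± 0.349 SE. For 18 iron genes it was 0.18, with the heme oxygenase gene hmox1a first, at 8.11, 2.12, 2.8, 2.69 and 2.76 CPM in the HFHC livers and 13.4, 11.3, 9.49, 26.1 and 3.65 CPM in the ND livers (log2 fold change -1.78 ± 0.508 SE, adjusted p = 0.12).

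The ER chaperone and unfolded protein response list (38 genes) had a median of 0.044, edem1 first (-0.38 ± 0.173 SE) and xbp1 at 115, 138, 151, 136 and 119 CPM in the HFHC livers and 99.3, 368, 142, 146 and 121 CPM in the ND livers, where ND replicate 2 was far above the rest (log2 fold change -0.41 ± 0.318 SE, adjusted p = 0.626). The ATF4 list (21 genes) had -0.31, nupr1 first (-0.68 ± 0.188 SE) and ddit3, which encodes the factor CHOP, at -0.61 ± 0.188 SE. The list labelled cytosolic heat shock and CCT chaperones (34 genes) also holds mitochondrial members. Its median was 0.081, with hspa9, the mitochondrial HSP70 gene, first (log2 fold change 0.60 ± 0.167 SE, adjusted p = 0.113) and hsp90aa1.2 at -0.04 ± 0.589 SE. Ribosomal proteins (81 genes) had a median of 0.039 with none past even an unadjusted p of 0.05 and rpl22l1 first (-0.23 ± 0.146 SE). Translation factors (50 genes) had 0.097 with eif4h first (0.35 ± 0.123 SE), ribosome biogenesis (46 genes) 0.22 with tsr1 first (0.74 ± 0.199 SE), and the proteasome (40 genes) -0.014 with psma2 first (-0.67 ± 0.182 SE).

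The mitochondrial respiratory chain (76 genes) had a median of 0.13, with 58 positive values (6121 of all 12622 genes tested were positive) and the complex I gene ndufb2 first (0.52 ± 0.152 SE). At an unadjusted p under 0.05, 6 were higher and 1 was lower, as were 5.41% and 8.92% of all genes. Complement and coagulation (47 genes) had 0.13 with the von Willebrand factor gene vwf first (-0.99 ± 0.264 SE), the fibrinogen gene fgb at 0.082 ± 0.24 SE and the complement C3 gene c3a.1 at -3.6e-04 ± 0.253 SE. Acute phase and plasma proteins (23 genes) had -0.027 with the transthyretin gene ttr first, at 226, 257, 266, 351 and 253 CPM in the HFHC livers and 194, 136, 133, 184 and 172 CPM in the ND livers, without overlap but with adjusted p = 0.0694. For cell cycle and DNA replication (28 of 57 genes tested) the median was -0.34, rfc5 came first (-0.56 ± 0.194 SE), and pcna was at 4.74, 6.44, 3.31, 20.4 and 4.02 CPM in the HFHC livers and 15.5, 6.99, 10.1, 5.98 and 9.17 CPM in the ND livers, highest in HFHC replicate 4 and ND replicate 1 (log2 fold change -0.30 ± 0.484 SE, adjusted p = 0.85). The aryl hydrocarbon target gene cyp1a had a log2 fold change of 0.13 ± 0.196 (SE, adjusted p = 0.839).

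The diet effect of the 1% EtOH livers was set beside that of the other doses in 1 fit of all 30 livers (14225 genes tested). There the diet called 125 genes in 1% EtOH livers (0.879%), 30 of them higher and 95 lower. In 0% EtOH livers it called 1580 genes (11.1%), 359 of them higher (2.52%) and 1221 lower (8.58%). That count was 338 without ND replicate 3 of the 0% EtOH livers. In a fit of its own 10 livers it was 130, beside 136 at 1% EtOH in such a fit. With limma-voom and quantile normalization the split at 0% EtOH turned, to 349 higher and 146 lower. The diet called 10 genes in 0.5% EtOH livers (0.0703%) in the fit of 30 livers, 6 higher (0.0422%) and 4 lower (0.0281%), against 5 higher and 7 lower with limma-voom. All 25 genes higher in 1% EtOH livers were also positive in 0% EtOH livers, where 13 of them passed, and 22 were positive in 0.5% EtOH livers, where none passed by edgeR. Of the 111 lower genes, 110 were negative in 0% EtOH livers, where 107 passed, but only 35 in 0.5% EtOH livers, where none passed. The marker sums ran in parallel. Exocrine pancreas markers were 276 to 941 CPM in HFHC and 3341 to 35714 CPM in ND livers at 0% EtOH, but 389 to 2573 and 439 to 5690.5 CPM at 0.5% EtOH. Intestinal markers at 0% EtOH were 41.5 to 343 CPM in HFHC and 47.2 to 11587 CPM in ND livers. The highest of these, ND replicate 3, also had the lowest hepatocyte sum at 0% EtOH, 54276 CPM. Intestinal markers at 0.5% EtOH were highest in 1 HFHC liver, replicate 2, at 2931 CPM, against 41.6 to 143 CPM in the ND livers.

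A test of the difference between the diet effects called no gene by edgeR between 1% and 0% EtOH livers (0 genes by edgeR, 765 at an unadjusted p under 0.05, 3 by DESeq2, 0 by limma-voom). The genes with the smallest p were FAM72B, with a diet effect of -0.62 ± 0.218 SE at 1% and 0.80 ± 0.218 SE at 0% EtOH (adjusted p of the difference 0.697), and thbs4b, which rested on HFHC replicate 4 of the 1% EtOH livers, at 22.1 CPM against less than 1 CPM in the other 9 livers. For guca1g the diet effect was 2.02 ± 0.386 SE at 1% EtOH and 2.32 ± 0.39 SE at 0% EtOH, for cpt2 0.88 ± 0.198 and 0.73 ± 0.198 SE, and for stat2 -0.97 ± 0.238 and -1.15 ± 0.239 SE. For irf7 the values were -1.22 ± 0.574 and -2.79 ± 0.601 SE, with an adjusted p of 0.90 for the difference of 1.57 ± 0.807 SE. The larger point estimates for dio2 (1.48 against 0.62), mtr (1.28 against 0.60) and decr1 (1.49 against 0.49) at 1% EtOH had adjusted p of 0.90, 0.865 and 0.892 for the difference. At this spread none of these genes was shown to respond differently at 1% and 0% EtOH.

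**Figure D4:**
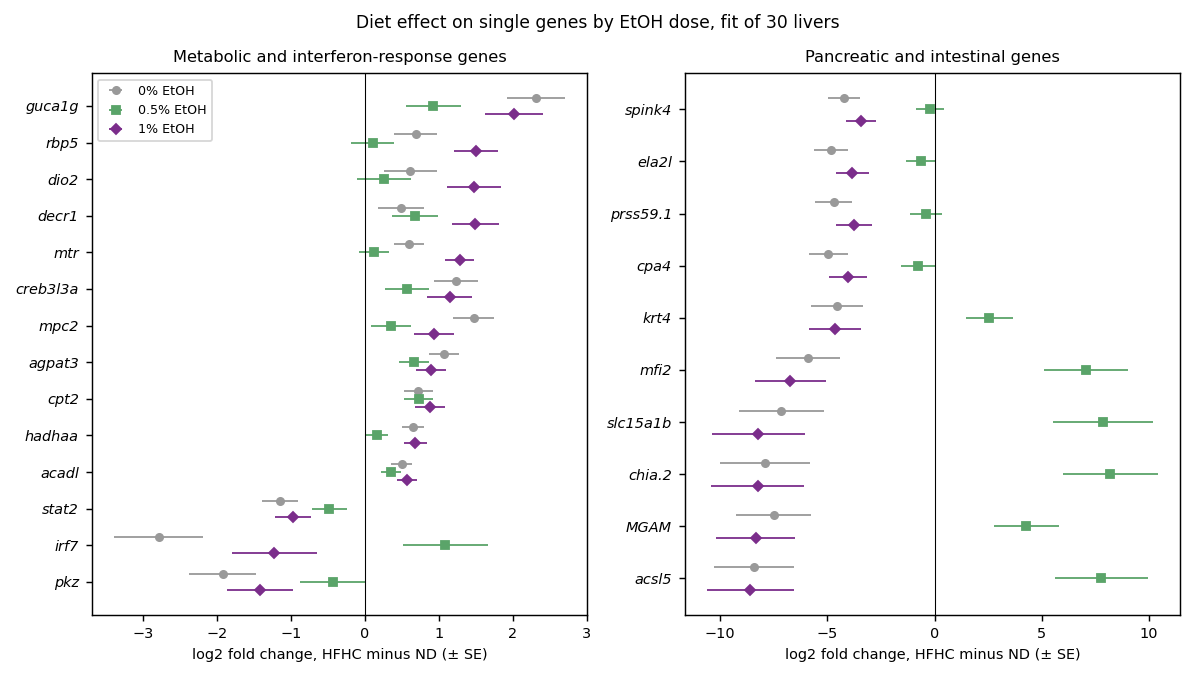
log2 fold change of HFHC over ND (x axis, ± SE) of named genes (y axis) at 0%, 0.5% and 1% EtOH, from 1 fit of 30 livers with 5 livers per group. The metabolic and interferon-response genes plotted have the same sign at 1% and 0% EtOH, and intestinal genes such as acsl5 and MGAM are negative at 1% and 0% EtOH and positive at 0.5% EtOH.

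Between 1% and 0.5% EtOH livers the diet effect differed in 372 genes (2.62%), 32 more positive (0.225%) and 340 more negative (2.39%) at 1% EtOH. In 322 of the 340 the highest 0.5% EtOH HFHC liver was replicate 2, the liver with the intestinal markers, and without that liver no gene passed by edgeR's test (1674 at an unadjusted p under 0.05). Genes such as acsl5 (-8.59 ± 2.02 SE at 1% and 7.78 ± 2.18 SE at 0.5% EtOH), mfi2 and apoea belong there, as do sec14l8 and cuzd1.1. None of the 5 genes more positive at 1% EtOH with the smallest p had passed within the 1% EtOH livers on their own. The clock gene bhlhe40 had 0.39 ± 0.318 SE at 1% and -1.85 ± 0.328 SE at 0.5% EtOH, irf2bp2b had 0.21 ± 0.234 and -1.36 ± 0.238 SE, and the O-GlcNAc transferase gene ogt.1 had 0.32 ± 0.0981 and -0.37 ± 0.0982 SE. The effects were 0.53 ± 0.127 and -0.30 ± 0.127 SE for PRRC2B and 0.54 ± 0.134 and -0.29 ± 0.134 SE for the cell surface receptor gene cdon. Of the 25 genes higher in 1% EtOH livers only mtr differed, with 1.28 ± 0.202 SE at 1% and 0.12 ± 0.199 SE at 0.5% EtOH (adjusted p of the difference 0.0237). Among interferon genes uba7 differed, at -2.23 ± 0.782 and 1.76 ± 0.78 SE (adjusted p = 0.0487), and so did ifit14, at -4.89 ± 1.48 and 2.33 ± 1.3 SE (adjusted p = 0.0437), while irf7, at -1.22 ± 0.574 and 1.09 ± 0.577 SE, did not pass (adjusted p = 0.135).

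Fatty acid oxidation genes had medians of 0.28, 0.16 and 0.40 at 1%, 0.5% and 0% EtOH, with 8 higher and 1 lower at 0% EtOH (2.52% and 8.58% of all genes) and none called at 0.5% EtOH by edgeR. Interferon genes had medians of -0.48, 0.33 and -0.72, with 11 lower at 0% EtOH (8.58% of all genes). Cholesterol synthesis genes had 0.42, 1.49 and -0.19, with no gene called at any dose by edgeR. Respiratory chain genes had 0.13, -0.14 and -0.19, so the sign of their median at 1% EtOH was not that of the other doses. Of these genes 2 were called lower at 0% EtOH (8.58% of all genes) and none at 1% or 0.5% EtOH by edgeR. No test of the difference was made for a list as a whole.

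**Figure D5:**
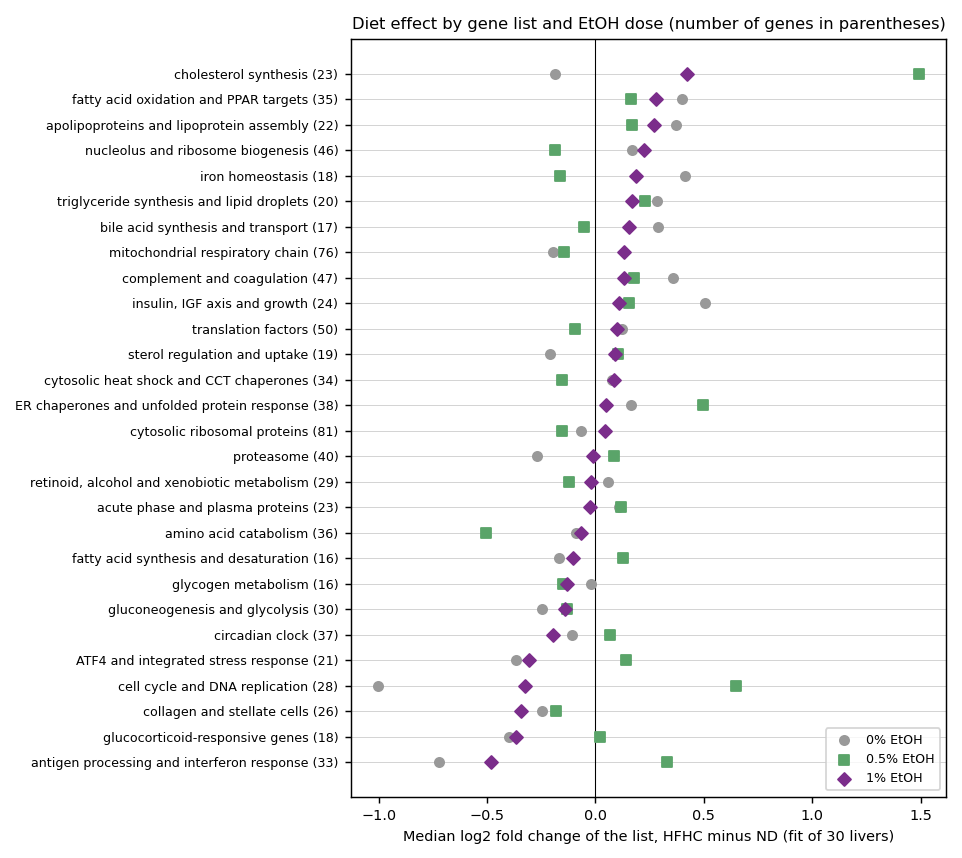
Median log2 fold change of HFHC over ND (x axis) of each of 28 gene lists (y axis, number of genes tested in parentheses) at 0%, 0.5% and 1% EtOH, from 1 fit of 30 livers. The 1% EtOH medians lie between -0.48 for interferon response and 0.42 for cholesterol synthesis, and the doses are farthest apart in cholesterol synthesis and in cell cycle genes.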

How the data were processed

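Poly(A) RNA of single adult livers was sequenced as single-end reads. The authors aligned reads with STAR (versions 2.3 and 2.4 stand in the submitters' processing notes) to GRCz10, counted them per Ensembl gene with HTSeq 0.6.0 over exons and deposited raw counts, which are the unit used here. Whether counting used the strand is not given in the sources used here, so reads of overlapping genes on opposite strands may be mixed. The 4 deposited tables also hold the authors' fold changes and p-values, which were not used, and 50 per-sample columns that were left aside, 40 of them counts divided by size factors.

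The 1% EtOH HFHC and ND columns, which stand in different tables, were joined by Ensembl ID (25680 genes). Genes were filtered with filterByExpr, scaled by TMM and tested with edgeR 4.0.16 (R 4.3.3) by quasi-likelihood, with Benjamini-Hochberg adjustment and a threshold of 0.05. Differences between EtOH doses came from 1 fit of 30 livers with 6 group means. DESeq2 1.42.0, limma 3.58.1 (voom with quantile normalization), other filters (no filter, or at least 10 counts in every liver), RLE scaling, a replicate block, left-out livers and marker covariates were alternatives. Library totals were 9757169 to 11720953 counts, and intervals on counts are exact and cover counting error only. The scripts were tested on simulated counts.

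Named genes were the 12 higher and 12 lower genes with the smallest p among those that passed without overlap between the diets and had a gene symbol, of each list up to 3 called members per direction or else the member with the smallest p, main regulators, 17 liver genes, most of them named by the study, and the genes with the smallest p in each difference between doses. Genes outside these rules are said to be so where they appear, except the markers ela2l, sycn.1, cpa4, prss59.1, slc15a1b, chia.2, vil1, agr2 and krt4. A gene that these rules name is not reported here. The members, lists and tests were chosen with earlier results of these data known.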

Additional observations from a re-analysis of the deposited data

Results flagged for a closer look

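In 29 of the 266 groups of 5 livers checked (named genes and 4 marker sums in the HFHC and the ND livers), 1 liver stood apart from the other 4 by a gap of more than 0.71 of the group's range. That cutoff flags about 1 in 20 groups only for independent, normally distributed values. These were CPM of genes from the same 10 livers, some of them named after their values were seen. Whether 29 is more than chance would flag was not tested. Of these, HFHC replicate 4 of the 1% EtOH livers stood apart in sterol genes, at 23.3 CPM for sqlea, 26.3 CPM for lss, 73.9 CPM for hmgcs1 and 42.6 CPM for hmgcra, and in the replication genes pcna (20.4 CPM) and rfc5 (3.84 CPM). The same liver was at 118 CPM for atf4b, at 22.1 CPM for thbs4b and, as the lowest, at 165 CPM for gys2. ND replicate 2 stood apart at 30.4 CPM for hmgcs1, 76.9 CPM for srebf2, 153 CPM for plin2, 368 CPM for xbp1, 52.9 CPM for dnajb11, 204 CPM for hspa9 and 377 CPM for sgk1, and was lowest for ogt.1, at 69.7 CPM. HFHC replicate 5 had 236 CPM of slc40a1 and 72106 CPM of tfa. ND replicate 5 had 683 CPM of fth1a and 621 CPM of mhc1uba, and ND replicate 3 had 83.4 CPM of helz2. ND replicate 1 had 4816 CPM of prss59.1 and 11.7 CPM of hsp90aa1.2. HFHC replicate 3 had 2073 CPM of scp2a and, at low levels, 0.725 CPM of tdp2a and 1.14 CPM of slc15a1b. HFHC replicate 1 had 25.4 CPM of per1a and 8.11 CPM of hmox1a.

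For 28 named genes the diet effect differed between 1% and 0.5% EtOH livers by edgeR's interaction test, given here as the effect at 1% minus that at 0.5% EtOH on the log2 scale. It was positive for mtr (1.16), cdon (0.83), PRRC2B (0.83), bhlhe40 (2.24), ogt.1 (0.69) and irf2bp2b (1.57). A negative difference of smaller size was that of FAM72B (-1.29). Larger negative differences were those of uba7 (-3.98), sycn.1 (-3.76), aldh1a2 (-4.43), scarb1 (-4.74), pde9a (-5.13), acsl1b (-5.31), ldha (-6.77), krt4 (-7.20), ifit14 (-7.23) and nr0b2a (-7.42). The rest were tex9 (-8.09), cldn15a (-9.77), sec14l8 (-11.59), MGAM (-12.63), mfi2 (-13.79), apoea (-15.81), vil1 (-15.84), slc15a1b (-16.08), acsl5 (-16.37), chia.2 (-16.45) and cuzd1.1 (-19.14). Fitted sizes of genes near 0 counts in a group depend on the prior count of the fit and are no bounds. The intestinal marker sum of 0.5% EtOH HFHC replicate 2 was 2931 CPM. Without that liver none of these 28 genes passed, as edgeR called 0 genes for this difference, with 1674 genes at an unadjusted p under 0.05.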

How the results depend on the processing

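The count of 136 genes changed by diet in 1% EtOH livers was 1004 with DESeq2 (210 higher, 794 lower), 1 (higher) with limma-voom, 297 without a filter, 64 with at least 10 counts in every liver, 0 without ND replicates 3 and 5 (1134 at an unadjusted p under 0.05), 0 with marker covariates (493 at an unadjusted p under 0.05), and 1 to 343 over single left-out livers. RLE scaling, the fit of 30 livers, a log2 fold change of at least 1 and leaving out ND replicates 3, 4 and 5 gave totals of 94 to 136, in the last case with 1 higher and 93 lower. A similar total did not mean the same genes. In the fit of 30 livers, 16 of the 25 higher and 47 of the 111 lower genes passed. The replicate numbers showed no sign of pairing the livers. Livers of the same number had correlations of -0.021 to 0.050 over 5 pairs, with 0 of 5 HFHC livers closest to their own number. So few correlations cannot exclude a pairing. With the replicate block the counts were 17 in 1% EtOH livers, 561 at 0%, 4 at 0.5% EtOH and 155 for the difference of 1% against 0.5% EtOH. That difference (372 genes) was 688 with DESeq2, 0 with limma-voom, 0 with at least 10 counts in every liver, 0 with marker covariates and 0 to 485 over left-out livers. The difference of 1% against 0% EtOH was 0 throughout, and 3 with DESeq2. The diet count at 0% EtOH (1580) was 495 with limma-voom (349 higher, 146 lower, against 359 and 1221), 841 with at least 10 counts in every liver, 130 in a fit of its own 10 livers, 0 with marker covariates and 338 to 2206 over left-out livers. At 0.5% EtOH (10) it was 329 with DESeq2 (256 higher, 73 lower), 3 without a filter, 30 with at least 10 counts in every liver, 0 in a fit of its own 10 livers and 0 to 49 over left-out livers. With marker covariates 9 of the named genes that had passed as lower turned positive. They were at 0.071 for stat2, 0.34 for rnf213b, 0.22 for pkz, 0.10 for tagln, 0.033 for roraa, 1.13 for helz2, 0.051 for sycn.1, 1.01 for acsl1b and 0.018 for prss59.1. Of all 111 lower genes, named or not, 87 stayed negative in that fit. Of the 39 list medians, 26 moved with marker covariates and 13 stayed. The median went from 0.22 to -0.70 for ribosome biogenesis and from 0.13 to -0.75 for complement and coagulation. For the respiratory chain it went from 0.13 to -0.16, for triglyceride genes from 0.17 to -0.15 and for cell cycle genes from -0.34 to -1.77. Why the counts and medians moved was not tested. The common biological coefficient of variation was 36.2% over the 10 livers, and the part of counting error beside it was not tested.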
